A study of Homo sapiens with 3 samples.

Results

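Noncoding snoRNA host transcripts are long noncoding RNAs that carry small nucleolar RNAs (snoRNAs) in their introns. The 10 hosts described here are GAS5, SNHG1, SNHG3, SNHG5, SNHG6, SNHG8, SNHG12, SNHG15, SNHG16 and ZFAS1, out of 10872 genes to which the replicate 2 clusters were assigned. They were listed by name, and their symbols were turned into Ensembl identifiers with GENCODE v44. RBM17, a splicing factor that associates with the U2 snRNP, was profiled by eCLIP in K562 cells, an established line from a chronic myelogenous leukemia, without any genetic change or drug. In eCLIP, RNA crosslinked to a protein by ultraviolet light is immunoprecipitated, sequenced and compared with an input from the same range of the gel. There were 2 RBM17 eCLIP replicates and 1 size-matched input, for which 2% of the sample was set aside, and all came from cells irradiated with 400 mJ/cm2 at 254 nm. No second condition or cell line was measured, and the study describes the replicates as biological. All 12 erythroid genes listed for K562 had a replicate 2 cluster, whereas none of 7 B cell, T cell and hepatocyte genes had one.

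The hosts held 124 of the 119066 replicate 2 clusters and 132 of the 137095 replicate 1 clusters. A cluster is an interval of piled-up reads that the authors' peak caller reported. Replicate 1 clusters were counted for a host when they overlapped, on the same strand, the span from its first to its last replicate 2 cluster. The replicates carry different values. For replicate 2 each cluster has a number of reads, which is not relative to the input. For replicate 1 each cluster has a log2 fold over the input and a −log10 p, with no reads, so its depth is unknown. No fold has a replicate error, and with 1 condition no test between groups of samples could be made.

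After splicing, the introns of these hosts are trimmed to mature snoRNAs, which stay in the nucleolus and guide chemical modification or cleavage of ribosomal RNA. Box C/D snoRNAs guide ribose methylation, and most box H/ACA snoRNAs guide the change of uridine to pseudouridine. The spliced exons of several hosts, among them GAS5, ZFAS1 and SNHG1, are known to be short lived in the cytoplasm, where translation exposes them to nonsense-mediated decay. Many hosts are also known to begin with a run of pyrimidines, the 5’ TOP tract of genes for the translation machinery. Of the 8 hosts with an entry in the RefSeq promoter table (GRCh38.p14), 3 had an annotated start at a C followed by at least 4 pyrimidines, namely SNHG5, SNHG12 and ZFAS1. Among all 35116 promoters of the same length the share was 4.07%. This feature is a description of the annotated start alone.

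Inside every host span lay replicate 2 clusters named for another, short gene on the same strand. There were 30 such places, 17 to 82 bp long in their clusters, with 31 Ensembl identifiers. They are called nested short genes here. Only 7 of the identifiers are in GENCODE v44, and all 7 are snoRNAs: SNORD12, SNORD12B and SNORD12C in ZFAS1, SNORD99 in SNHG12, SNORD1B in SNHG16, SNORA73B in SNHG3 and SNORD87 in SNHG6. The other identifiers could not be named from the tables used here. RefSeq places 11 snoRNAs inside the GENCODE span of GAS5 and 9 inside that of SNHG1 in hg38, where the clusters gave 8 nested places in each. SNHG12 holds 4 and gave 3, SNHG16 holds 3 and gave 2, and SNHG5 holds 2 and gave 1. In SNHG3, ZFAS1, SNHG6, SNHG8 and SNHG15 the numbers were equal, with 2, 3, 1, 1 and 1.

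The following sequences are those of 6 named snoRNAs at which the folds described below were measured, as GENCODE v44 gives them in hg38. The 3 ZFAS1 snoRNAs are shown because 1 of them, SNORD12B, behaved unlike the others in the eCLIP. Capitals mark the letters TGATGA (the C box) and the last CTGA after it (the D box) in the box C/D snoRNAs, and ACA followed by 3 bases (ACANNN) at the 3’ end of SNORA73B. SNORD99 has no capitals, since these C and D letters were not found in this order in its sequence. Only the strand of the snoRNA was searched, and 31.6% of the 942 snoRNA transcripts of GENCODE v44 hold the C and D letters in this order, while 29.6% hold the ACA letters.
SNORD12C in ZFAS1, chr20:49278940-49279028, + strand: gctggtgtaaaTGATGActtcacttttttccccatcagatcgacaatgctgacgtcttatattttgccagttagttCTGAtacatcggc
SNORD12B in ZFAS1, chr20:49280319-49280409, + strand: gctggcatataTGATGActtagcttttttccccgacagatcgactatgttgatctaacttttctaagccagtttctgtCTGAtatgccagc
SNORD12 in ZFAS1, chr20:49280683-49280772, + strand: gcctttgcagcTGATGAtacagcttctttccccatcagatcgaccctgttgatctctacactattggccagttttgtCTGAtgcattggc
SNORD1B in SNHG16, chr17:76561109-76561192, + strand: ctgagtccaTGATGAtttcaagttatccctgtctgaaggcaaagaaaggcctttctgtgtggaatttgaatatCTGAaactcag
SNORD99 in SNHG12, chr1:28578749-28578822, − strand: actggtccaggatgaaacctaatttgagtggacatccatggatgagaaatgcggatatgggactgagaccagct
SNORA73B in SNHG3, chr1:28508559-28508762, + strand: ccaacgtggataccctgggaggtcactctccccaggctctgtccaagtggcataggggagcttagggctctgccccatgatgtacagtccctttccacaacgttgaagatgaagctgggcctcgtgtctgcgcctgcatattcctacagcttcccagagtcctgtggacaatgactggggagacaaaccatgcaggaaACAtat

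All cluster positions below are in hg19, as the files give them, and were not converted. Replicate 2 reads summed to 6032 over the hosts, 0.451% of the 1336581 reads of the library's clusters with each interval counted once. GAS5 held 1611 reads, SNHG3 1414 and SNHG1 1379, together 73.0% of the reads of the hosts. ZFAS1 followed with 601 reads and SNHG12 with 334. Between 98 and 208 reads lay in SNHG5 (208), SNHG15 (141), SNHG6 (131), SNHG16 (115) and SNHG8 (98). The median over all genes was 33 reads, and the hosts ranged from the 77.8 percentile of genes for SNHG8 to the 99.7 percentile for GAS5. The 22 SNHG3 clusters all overlapped clusters named for RCC1, the gene of the nucleotide exchange factor of Ran, so the reads of SNHG3 cannot be told apart from those of RCC1.

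Per length, counted as reads per kilobase covered by clusters, the order was led by SNHG1 with 2753, SNHG3 with 2082, GAS5 with 1991 and ZFAS1 with 1394. SNHG12 had 764, SNHG8 580, SNHG6 471, SNHG5 449 and SNHG15 420. SNHG16 was lowest with 205, at the 81.2 percentile of genes, while the other hosts were at or above the 93.5 percentile. With reads in 1 replicate only, there is no replicate spread against which neighbours in this order could be compared.

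**Figure D1:**
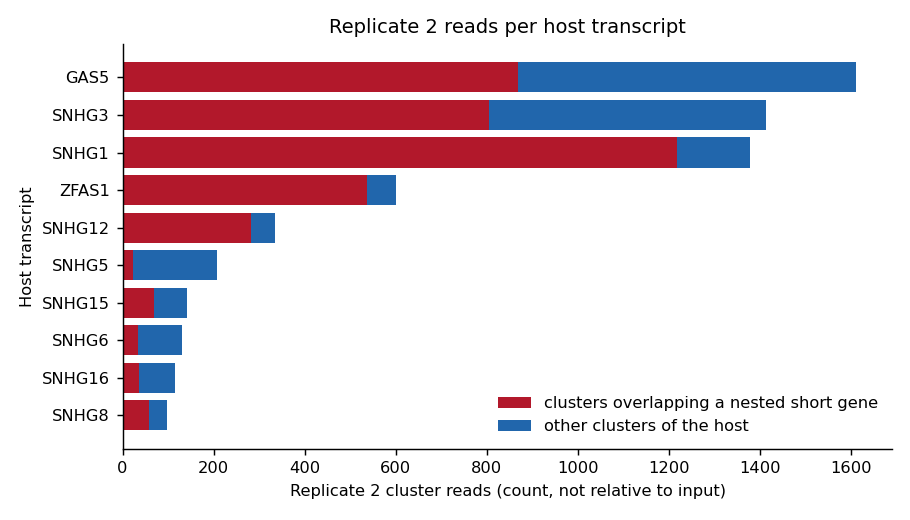
Horizontal bars give the replicate 2 cluster reads (x axis, a count not relative to the input) of each of the 10 hosts (y axis). Red parts are reads in clusters that overlap a nested short gene and blue parts those in all other clusters of the host, and red makes up 88.3% of SNHG1 and 10.6% of SNHG5.

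A large part of these reads lay at the nested short genes. Of the 124 replicate 2 clusters named for a host, 46 overlapped a cluster of a nested short gene (37.1%), and these held 3930 of the 6032 reads (65.2%). They had 1992 reads per covered kilobase, against 781 in the other 78 clusters. The share of reads in clusters at nested genes was 89.4% in ZFAS1, 88.3% in SNHG1 and 84.7% in SNHG12, and it was lowest in SNHG6 with 25.2% and SNHG5 with 10.6%. In 9 of the 10 hosts the cluster with the most reads was at a nested gene, the exception being SNHG5. RefSeq places 2 snoRNAs in SNHG5, where 1 nested place was found, so reads of a snoRNA may be counted as other there. A cluster of the host and the cluster of the nested gene under it hold reads of the same place, so the reads were counted once, under the host.

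Most replicate 2 clusters of the hosts were found again in replicate 1. An overlapping replicate 1 cluster was present for 97 of the 124 (78.2%, exact Clopper-Pearson 95% interval 69.9 to 85.1%), against 31.9% of all replicate 2 clusters. Clusters of 1 host are not independent, so this interval covers counting error only and is too narrow. The hosts' clusters had a median of 32 reads against 5 over the library, and the part of depth in the overlap was not tested. All 46 clusters at nested genes were overlapped, and 51 of the other 78 (65.4%). GAS5 had 23 of 24 clusters overlapped, SNHG1 13 of 15 and SNHG3 19 of 22, whereas SNHG5 had 6 of 12 and SNHG15 3 of 5. On the opposite strand, the spans held 0 clusters in either replicate. Each of the 10 hosts therefore had clusters in both replicates, those of replicate 2 being given by the way spans were set. Over all 10872 genes, 8524 had a replicate 1 cluster in their span. Among the 2379 genes with at least 100 reads, 2378 did, so the hosts do not stand out in this.

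The folds over the input were next set against minimums of 3 for the log2 fold and 3 for the −log10 p. The paper called its peaks with a log2 fold above 3 and a limit on the FDR, so the p minimum here is not the paper's. The authors' list of 866 peaks held 0 in the spans of the 10 hosts, and 4.07% of all genes with a replicate 2 cluster had 1 or more in their span (16.3% of genes with at least 100 reads). A count of 0 in 10 hosts allows a share of up to 30%, so it does not set the hosts apart from this background. In replicate 1, 0 of the 132 replicate 1 clusters of the hosts reached both a log2 fold of 3 and a −log10 p of 3, which allows a share of up to 2.27% by counting error alone. Clusters of 1 host are not independent, so the limit of 2.27% is too low. Over all replicate 1 clusters the share past both minimums was 5.35%, and 16.2% of genes had such a cluster in their span. Among genes with at least 100 reads this was 44.4%. Those 2379 genes held 73146 replicate 1 clusters, against 132 in the 10 hosts, and were not matched to the hosts in clusters per gene. SNHG8, with 98 reads, is below that read minimum. The hosts were not tested against these genes. The hosts closest to the minimums were SNHG1, with a log2 fold of 2.96 and a −log10 p of 7.23 at chr11:62622692-62622718, and SNHG15, with 3.65 and 2.68 at chr7:45023763-45023782. A cluster of SNHG6 had a log2 fold of 3.19 with a −log10 p of 1.81.

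At a lower fold, most of the clusters that passed were in GAS5. When the fold minimum was lowered to 2 on the log2 scale and that of the −log10 p kept at 3, 9 host clusters passed, 8 in GAS5 and 1 in SNHG1. That is 6.82% of the clusters of the hosts, against 8.44% of all replicate 1 clusters. At a log2 fold minimum of 1 there were 16 in GAS5, 3 in SNHG3, 2 in SNHG1 and 2 in ZFAS1, and 0 in each of the other 6 hosts.

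In replicate 1, most clusters of the hosts were below the input. The log2 fold was below 0 in 78 of 132 clusters (59.1%, exact Clopper-Pearson 95% interval 50.2 to 67.6%), against 11.4% of all replicate 1 clusters. The interval is too narrow, since clusters of 1 host are not independent. Over the 65 clusters in no other gene's span, 60% were above 0. The median was −0.57 over the hosts and 1.51 over the library. Low folds repeat between clusters, and the most frequent value, 1.77, was given to 13.2% of all replicate 1 clusters and to 4 of the hosts' clusters. All clusters below 0 have a −log10 p of 0, so that their depletion carries no p of its own. Among the 9 hosts with at least 3 replicate 1 clusters, 6 had a median below 0, and 8.29% of the 6607 genes with as many did.

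**Figure D2:**
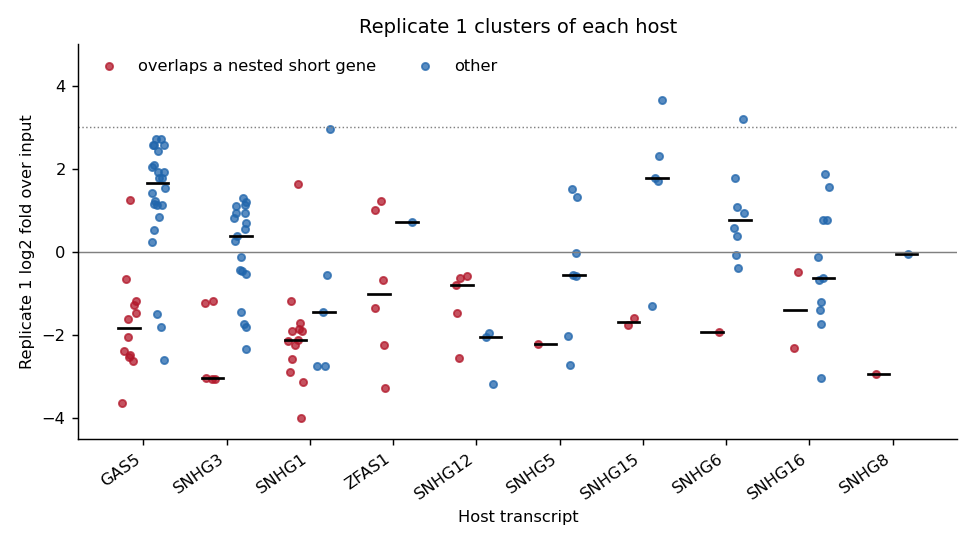
Points are the replicate 1 clusters of each host (x axis), placed by their log2 fold over the input (y axis), in red where the cluster overlaps a nested short gene and in blue otherwise. Black bars are medians, the grey line is 0 and the dotted line a log2 fold of 3, and the red medians lie below the blue ones in all hosts but SNHG12.

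The depletion lay where the nested short genes are. Of the 48 replicate 1 clusters that overlapped a nested gene, 44 had a log2 fold below 0 (91.7%, exact interval 80.0 to 97.7%), with a median of −1.92 and a range from −3.99 to 1.62. Of the other 84 clusters, 34 were below 0 (40.5%, exact interval 29.9 to 51.7%), with a median of 0.70 and a range from −3.18 to 3.65. The median at nested genes was lower in 9 of the 10 hosts, and SNHG12 was the exception with −0.80 at nested genes and −2.06 elsewhere. Of the 3 clusters of SNHG12 elsewhere, those at −3.18 and −2.06 abut a cluster at a nested gene. These intervals cover counting error only, since clusters of 1 gene share their source. Among the 84 other clusters, 20 were still below −1. These other clusters are not free of snoRNAs. The nested places are 17 to 82 bp long, whereas the snoRNAs shown above are 74 to 204 bp long. GAS5, SNHG1, SNHG5, SNHG12 and SNHG16 also have more snoRNAs in RefSeq than nested places. How many of the other clusters lie on a snoRNA was not analysed. When clusters within 20 bp of a nested gene were counted with it, 22 of the 72 remaining clusters were below 0 and their median was 0.93.

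The same places held the most reads in replicate 2. There were 15 host clusters with at least 100 reads, in GAS5, SNHG1, SNHG3 and ZFAS1, and 13 of them were at a nested gene. The 17 replicate 1 clusters that overlapped them had a median log2 fold of −1.92, and 14 were below 0. The deepest cluster of replicate 2 among the hosts, with 214 reads in SNHG3 at chr1:28835247-28835261, is an example. It lies at SNORA73B, a box H/ACA snoRNA of the U17 family, known for its role in processing the ribosomal RNA precursor. The nested place of SNORA73B covers 41 bp, whereas the snoRNA is 204 bp long. The 3 replicate 1 clusters that overlapped this place had log2 folds from −3.06 to −3.04. The abutting cluster chr1:28835209-28835226, counted as other, had −2.33.

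GAS5 (ENSG00000234741), named for growth arrest, spans chr1:173833184-173836871 on the − strand in its replicate 2 clusters. Its 24 replicate 2 clusters held 27 to 159 reads each, with a median of 64. In replicate 1 its 36 clusters had log2 folds from −3.65 to 2.72, with a median of 1.13. The medians at nested genes and elsewhere differed by −3.50, the widest gap of the 10 hosts. At the 8 nested genes, 11 of 12 replicate 1 clusters were below 0, with a median of −1.84, while between them 21 of 24 were above 0, with a median of 1.66. The lowest fold, −3.65 at chr1:173835772-173835778, lay at the nested gene with the most reads, where the host cluster chr1:173835780-173835833 held 159. High folds, 2.56 to 2.72, were found in 3 abutting clusters from 173834289 to 173834336, with −log10 p of 17.8, 20.8 and 19.1 and 83 replicate 2 reads. Another cluster, at chr1:173833762-173833785, had 2.71 with a −log10 p of 10.1, and that at chr1:173836611-173836647 had 2.56 with 8.74, at a place without a replicate 2 cluster of GAS5. A single nested gene of GAS5, ENSG00000208313, was above the input, with a log2 fold of 1.23 and a −log10 p of 4.18.

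SNHG1 (ENSG00000255717, chr11:62620381-62623262, − strand) was below the input at nearly every cluster. Of its 18 replicate 1 clusters, 16 were below 0, with a median of −2.02 and the lowest fold of all hosts, −3.99 at chr11:62620804-62620863. Its replicate 2 reads peaked at 197 at chr11:62620402-62620411, inside the longest nested place, where the 4 replicate 1 clusters lay between −2.14 and −1.86. Only 2 clusters were above 0, 1 between nested genes with the log2 fold of 2.96 given above, and 1 at the nested gene ENSG00000252140, with 1.62 and a −log10 p of 3.32. That gene had 17 reads in replicate 2, the fewest of the 8 nested genes of SNHG1.

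ZFAS1 (ENSG00000177410), antisense to the 5’ end of ZNFX1 and located at chr20:47895499-47900321 on the + strand, had 7 replicate 1 clusters, 6 of them at its 3 snoRNAs. At SNORD12C the folds were −3.27 and −2.25 and at SNORD12 the fold was −1.36. At SNORD12B they were 1.22, 1.01 and −0.69, and the first 2 had −log10 p of 26.2 and 18.8, the first of which is the largest of any host cluster. SNORD12B also had the most replicate 2 reads of the 3, with 160 in the host cluster chr20:47896877-47896914, against 57 in the deepest host cluster at SNORD12C and 57 at SNORD12. So 3 box C/D snoRNAs of 1 host, with the same C and D letters in the sequences above, had folds on both sides of the input. The remaining cluster, outside the snoRNAs, had a log2 fold of 0.71.

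**Figure D3:**
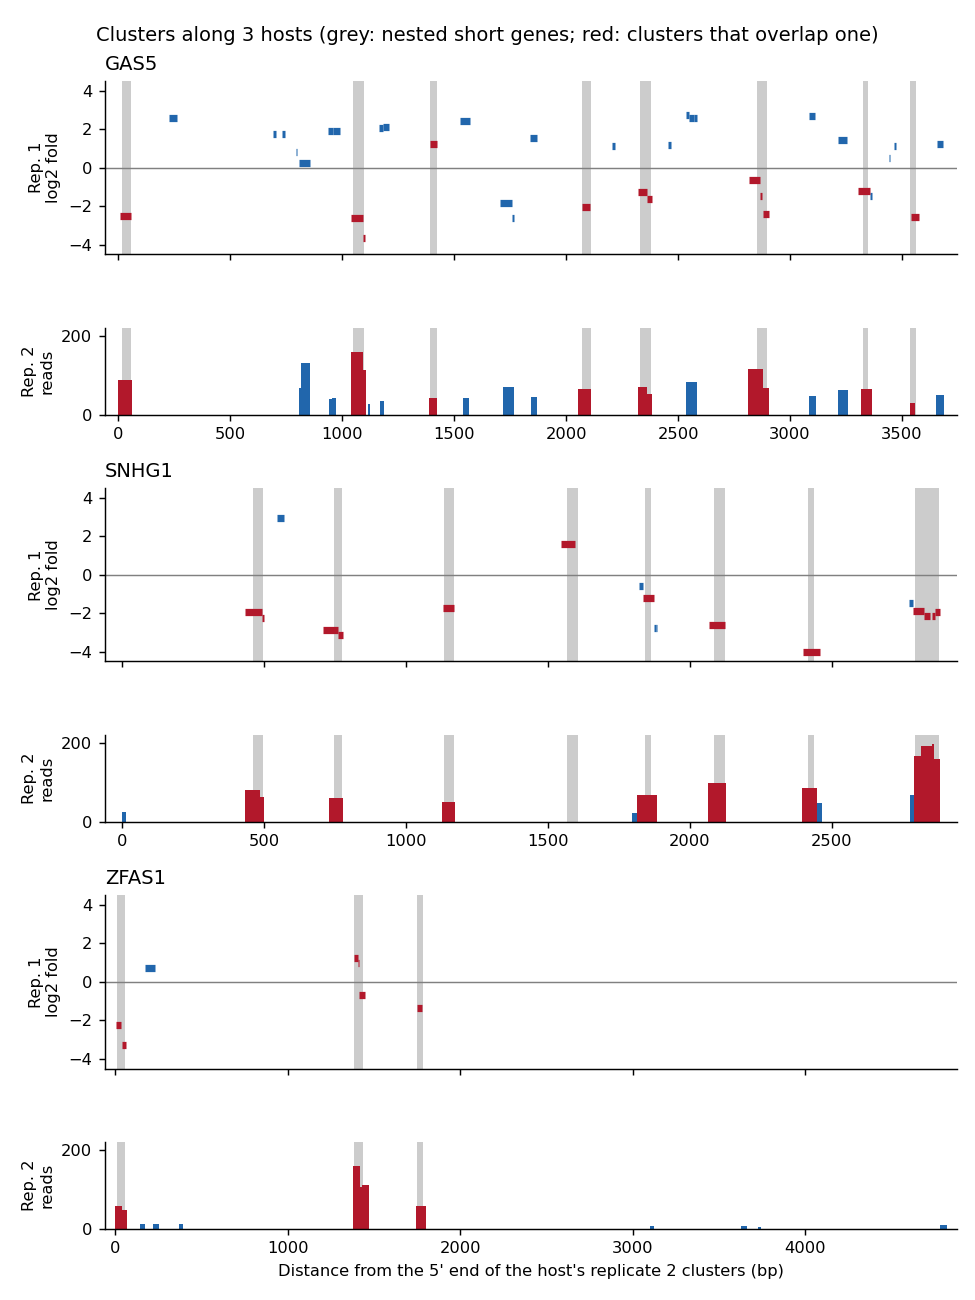
For GAS5, SNHG1 and ZFAS1, the upper panels give the replicate 1 log2 fold over the input of each cluster and the lower panels the replicate 2 reads (y axes), along the distance in bp from the 5’ end of the host's replicate 2 clusters (x axis). Grey columns are nested short genes and red marks clusters that overlap them: in GAS5 21 of the 24 blue clusters lie above 0, whereas in SNHG1 12 of 13 red clusters lie below 0.

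SNHG3 (ENSG00000242125, chr1:28832566-28835768, + strand), whose clusters are shared with RCC1, had 24 replicate 1 clusters with log2 folds from −3.06 to 1.30 and a median of −0.29. All 5 at its nested genes were below 0, with a median of −3.04, and the other 19 had a median of 0.37. Its highest fold, 1.30 at chr1:28834754-28834792, had a −log10 p of 8.02. The same median outside the nested genes was 1.66 in GAS5, and the difference was not tested.

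In SNHG12 (ENSG00000197989, chr1:28905142-28907545, − strand) all 8 replicate 1 clusters were below 0, from −3.18 to −0.59. The 2 at SNORD99 were at −0.80 and −0.59, and the 1 at the nested gene ENSG00000207314 was at −2.56. The lowest, −3.18 at chr1:28906894-28906910, abuts that last cluster without overlapping the nested gene. On its other side, the cluster at that nested gene is abutted by chr1:28906955-28907029, with −2.06. These clusters overlap the replicate 2 cluster chr1:28906891-28907024, and the one at −2.06 runs past its end. SNHG8 (ENSG00000269893, chr4:119200056-119200477, + strand) had the shortest span, with 2 clusters in each replicate. They held 40 and 58 reads, and the replicate 1 folds were −0.05 and, at its nested gene, −2.93.

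SNHG5 (ENSG00000203875, chr6:86385225-86388429, − strand) had 8 replicate 1 clusters from −2.74 to 1.51, 6 of them below 0. Its reads were spread over 12 clusters of 3 to 27 reads. SNHG16 (ENSG00000163597, chr17:74553885-74560577, + strand) was similar, with 12 replicate 2 clusters of 3 to 22 reads and 13 replicate 1 clusters from −3.03 to 1.87. At the nested place of SNORD1B, 21 bp against 84 bp for the snoRNA, its fold was −0.50, and at the nested gene ENSG00000200185 it was −2.32. The lowest fold of SNHG16, −3.03 at chr17:74557244-74557259, was counted as other. It lay in the same replicate 2 cluster, chr17:74557186-74557263, as the nested place of SNORD1B. In neither host did any cluster above the input reach a −log10 p of 3, and the largest were 1.40 in SNHG5 and 1.89 in SNHG16.

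SNHG15 (ENSG00000232956, chr7:45023014-45025112, − strand) and SNHG6 (ENSG00000245910, chr8:67834297-67837716, − strand) were, with GAS5, the hosts with a median above 0. The median log2 fold was 1.69 over 7 clusters in SNHG15 and 0.58 over 9 in SNHG6. SNHG15 had 4 clusters from 1.69 to 3.65, all with −log10 p below 3, and 3 from −1.76 to −1.30 at its 5’ end, 2 of which overlapped its nested gene. In SNHG6 the cluster at SNORD87 was its lowest, at −1.92, and 6 of the other 8 were above 0. These hosts had 141 and 131 replicate 2 reads, and no cluster of either reached a −log10 p of 3.

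Folds below the input at snoRNAs were not limited to these hosts. Over the whole library, 210 replicate 1 clusters overlapped a replicate 2 cluster named for 1 of 164 GENCODE v44 snoRNAs. Of these, 93.8% had a log2 fold below 0 (exact interval 89.6 to 96.7%, counting error only), with a median of −1.54. The named snoRNAs of the 10 hosts are included in this count. For comparison, hosts were taken from GENCODE v44 as genes with an HGNC-named snoRNA inside them on the same strand, leaving out those that overlap the 10 hosts. In 14 other noncoding hosts, 23 of 26 clusters at nested genes were below 0 (88.5%). In 128 protein coding hosts, which include genes of ribosomal proteins and translation factors, 168 of 180 were (93.3%). The median at nested genes was lower than in the rest of the gene in 79 of the 81 coding hosts with both kinds of cluster, and in 8 of 8 other noncoding hosts.

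Outside the nested genes, coding and noncoding hosts were further apart. In the coding hosts, 14.3% of 2857 clusters were below 0 and the median log2 fold was 1.57. In the 10 hosts described here these were 40.5% and 0.70, and in the other noncoding hosts 41.2% of 68 clusters and 0.24. Among these other noncoding hosts, ENSG00000264772 overlaps clusters named for EIF4A1, a protein coding gene. It held 20 of their 94 replicate 1 clusters and 7 of the 9 past both minimums. Such clusters may be counted in both groups, also in the shares at nested genes above. Without clusters within 20 bp of a nested gene, 22 of 72 in the 10 hosts were below 0, with a median of 0.93. Such values are not given for the other groups. Among 742 other lncRNA genes, 28.1% of 3099 clusters were below 0 and the median was 0.77. A replicate 1 cluster past both minimums was found in 64 of the 128 coding hosts (50.0%), in 2 of the 14 other noncoding hosts, in 24 of the 742 lncRNA genes (3.23%) and in 0 of the 10 hosts. The median replicate 2 reads per gene were 205, 51, 11 and 271. No test was made of these differences, since the hosts were chosen with earlier results known.

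**Figure D4:**
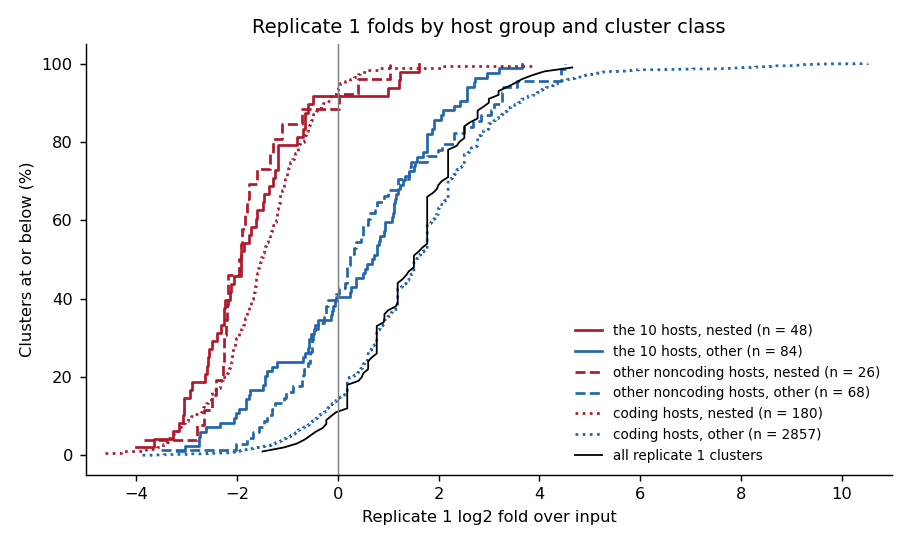
Curves give the percentage of replicate 1 clusters (y axis) at or below a log2 fold over the input (x axis), in red for clusters at nested short genes and blue for the others, as solid lines for the 10 hosts, dashed lines for other noncoding hosts and dotted lines for coding hosts. The red curves reach 88.5 to 93.3% at 0, whereas the blue curves reach 14.3% for coding hosts and about 40.5 to 41.2% for noncoding hosts, and black is all replicate 1 clusters.

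Of the 14 other noncoding hosts, 2 had a reproducible peak. SNHG7 had a peak at chr9:139621056-139621087 on the − strand, with the authors' log2 fold of 4.39 and −log10 p of 4.21 over both replicates, and the same interval had 4.51 and 5.33 in replicate 1. Its gene had 141 replicate 2 reads, as many as SNHG15, and a median log2 fold of 2.75 over 6 replicate 1 clusters. The other is ENSG00000264772, with a peak at chr17:7476577-7476613 of log2 fold 4.46, but its span overlaps clusters named for EIF4A1, a translation initiation helicase that is itself a snoRNA host, and the 2 cannot be told apart.

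Transcripts for the proteins that assemble with snoRNAs were also examined. Of 17 transcripts for snoRNP proteins, assembly factors and AQR, an intron-binding helicase that links snoRNP assembly to splicing, 15 had a replicate 2 cluster, 3 a replicate 1 cluster past both minimums and 2 a reproducible peak. Over all genes with a replicate 2 cluster, 16.2% had a cluster past both minimums and 4.07% a peak, so the first of these counts is near the background and the second rests on 2 genes. NOP56, a core protein of box C/D snoRNPs and itself a snoRNA host, had 1 peak, with a log2 fold of 3.99. DKC1, the pseudouridine synthase of box H/ACA snoRNPs and also a host, had 1 peak with a −log10 p of 3.48 and 7 replicate 1 clusters past both minimums. GAR1, another H/ACA core protein, had 9 such clusters and 0 reproducible peaks. FBL, the methyltransferase of box C/D snoRNPs, had 0 of either and a median log2 fold of −0.45 over 5 clusters.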

How the data were processed

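The authors made all files with the eCLIP v0.4.0 pipeline, and the submitters' processing notes name cutadapt and STAR. The build is not given in the sources used here and was taken as hg19 from the largest chromosome 1 position, 249211903. In replicate 1 and in the reproducible list, the authors deposited a −log10 p (limited to 400 in replicate 1) and a log2 fold over the input. In replicate 2 they deposited a p-value from peak calling, up to 0.05, and a name with gene and reads, read here as a count. Replicates 1 and 2 here carry the numbers 2 and 3 in the sample titles. Intervals were overlapped on the same strand by at least 1 bp with Python 3.11.15, pandas 2.3.3, numpy 2.4.6 and scipy 1.17.1, tested on simulated data, and plotted with matplotlib 3.10.9. A nested short gene is another replicate 2 gene of at most 300 bp of clusters inside a host span, a class chosen after the data were seen. Of the 10872 genes, 10423 were found in GENCODE v44. Whether a cluster lies in an exon or intron was not analysed here, since the annotation used is in hg38. The hosts and all lists were chosen with earlier results of these data known. The text names the hosts with their deepest replicate 2 and their highest and lowest replicate 1 clusters, noncoding hosts with a peak or a cluster past both minimums, and snoRNP genes with a peak. GAR1, FBL and the nested genes named were added after their values were seen. Alternatives covered thresholds, overlap rules, cluster filters and leaving out a host.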

Additional observations from a re-analysis of the deposited data

How the results depend on the processing

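Of 58 alternatives, 38 were classed as keeping their result, 17 as moving it and 3 as turning its sign. Values classed as kept could still shift. Hosts with clusters in both replicates fell from 10 to 7 when replicate 1 folds had to be above 0. The median log2 fold of −0.57 became −1.18 over clusters that overlap a cluster named for the host. No host and 0 clusters passed both minimums, but with a log2 fold of at least 2 there were 2 hosts and 9 clusters, with at least 1 there were 4 hosts and 23 clusters, and with a −log10 p of at least 2 there was 1 of each. The share of host clusters above the input, 40.9%, was 60% over clusters in no other gene's span (65 clusters of 9 hosts), 100% with a −log10 p of at least 3 (which removes clusters below 0 by construction) and 30% with 1 value per host. It was 59.5% outside and 8.33% at nested genes. The median log2 fold of −0.57 became 0.77 over clusters in no other gene's span, 1.77 with a −log10 p of at least 3, 0.70 outside nested genes and −1.92 at them. The share of replicate 2 clusters overlapped in replicate 1, 78.2%, was 33.9% when only replicate 1 clusters in another gene's span were left out, which lowers it by construction, and 59.7% (37 of 62) when replicate 2 clusters were filtered too, an alternative added after seeing the data. It was 66.9% for an overlap of 50%, 94.7% for a caller p of at most 1e-10 and 0% on the opposite strand. The difference of medians between nested genes and the rest, −2.62, lay between −2.85 and −1.88 under its alternatives, the last without GAS5. Leaving out a replicate gave no value that could differ, since the hosts and reads come from replicate 2 alone and the folds from replicate 1 within spans set by replicate 2. No paired analysis was possible because there is 1 group of 2 replicates and no values of the input alone. Replicate 1 has no reads, so the depth behind its folds is unknown.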
